A study of Homo sapiens with 6 samples.

Results

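Genes that set how a leukaemia cell handles cytarabine and pumps out drugs were examined in Kasumi-1 cells with and without interleukin-10 (IL-10). The set was a list of 10 gene symbols for nucleoside uptake, cytarabine activation and breakdown, and drug efflux, matched to the Ensembl identifiers in a table of 27576 genes. Rows were found for 9 of the 10: SLC29A1, DCK, DCTD, SAMHD1, NT5C2, ABCB1, ABCC1, ABCC4 and ABCG2. CDA, the gene of cytidine deaminase, was not analysed here. All 9 passed the filter on low values (3 or more libraries with a value of 1 or higher), as did 21946 genes in all.

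Kasumi-1 is a human acute myeloid leukaemia line that carries the t(8;21) translocation. Cells of this single line, in RPMI1640 with 20% fetal bovine serum, received 10 ng/ml recombinant human IL-10 or, as control, 0.5% bovine serum albumin, each for 72 h, and RNA was sequenced from 3 libraries per group. The labels name no treatment with cytarabine or another drug. Values are normalised read counts (reads divided by a size factor for the library), from 20750115 to 24222897 reads per library, and the deposited table is named FPKM although its values are not divided by gene length. All 5 Kasumi-1 blast markers checked (KIT, CD34, MPO, RUNX1T1 and CD33) had reads in the table, with summed values of 126196 to 223585 in control and 126942 to 210216 with IL-10.

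Cytarabine is a deoxycytidine analogue that forms the backbone of treatment for this leukaemia. It enters cells mainly through the nucleoside transporter encoded by SLC29A1 and becomes active only after DCK adds the first phosphate and other kinases add the rest. Cytidine deaminase inactivates the drug itself, DCTD its monophosphate, NT5C2 removes the monophosphate group and SAMHD1 cleaves the active triphosphate. ABC transporters carry drugs out of the cell: ABCB1 and ABCC1 are known for anthracyclines, ABCC4 for nucleotide analogues and ABCG2 for a wide range of substrates.

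No member changed past the threshold between IL-10 and control. DCK stood at almost the same value in all 6 libraries. SLC29A1, DCTD and ABCC1 were high in 1 IL-10 library, replicate 2, and in the other IL-10 libraries lay close to the control values. ABCB1 had lower values in all 3 IL-10 libraries than in any control library, by a margin that was very small in replicates 3. ABCG2 had almost no reads. The question put to each gene was whether its transcript level differed between cells kept with and without the cytokine. With limma on log2(value + 1), 0 of the 9 members passed an adjusted p under 0.05, against 0% of all 21946 genes tested, and 0 had an unadjusted p under 0.05, against 1.57% of all genes. With edgeR and DESeq2 on the recovered reads no gene passed either (257 and 94 genes at an unadjusted p under 0.05).

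The transcripts differ in base composition, and that difference runs along with the spread between libraries described below. The stretches shown are 150 coding bases from the longest coding exon of the member richest in GC and the member poorest in GC, with every G and C in capitals. That of SLC29A1 lies in exon 4 of 13 (GRCh38, GENCODE 29, plus strand, chr6:44229589-44229738) and that of DCK in exon 3 of 7 (plus strand, chr4:71022367-71022516). G and C make up 55.3% of the first stretch and 42% of the second.
SLC29A1: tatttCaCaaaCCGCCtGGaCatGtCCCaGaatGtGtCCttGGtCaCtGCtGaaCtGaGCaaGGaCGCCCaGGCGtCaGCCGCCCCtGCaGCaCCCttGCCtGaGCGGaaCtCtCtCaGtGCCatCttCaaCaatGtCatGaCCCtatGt
DCK: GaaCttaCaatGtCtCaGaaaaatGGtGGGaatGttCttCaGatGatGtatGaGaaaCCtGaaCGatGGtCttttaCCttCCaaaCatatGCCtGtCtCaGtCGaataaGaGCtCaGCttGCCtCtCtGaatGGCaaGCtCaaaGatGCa
Over the longest annotated transcript the GC content was 56.9% for SLC29A1, 54.9% for ABCC1 and 53.1% for DCTD. It was lower in the other members: 44.4% for SAMHD1, 43.2% for NT5C2 and for ABCC4, 43.1% for ABCB1, 41.2% for ABCG2 and 38.8% for DCK.

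SLC29A1 (ENSG00000112759, chromosome 6, 44219505 to 44234151, GRCh38), the uptake transporter, had the most reads of the set. In the order of replicates 1 to 3, kept throughout, its normalised counts were 4786, 5955 and 4280 in control, against 4729, 9135 and 4005 with IL-10. The groups overlapped, and IL-10 replicate 2 was far above every other library while control replicate 2 was the highest of its group. The means were 5007 ± 859 in control and 5956 ± 2776 with IL-10 (SD, n = 3), a log2 fold change of 0.17 (SE 0.30, 95% interval -0.50 to 0.84, adjusted p = 0.982 in limma). Without IL-10 replicate 2 the log2 fold change was -0.19, so the sign rests on that library.

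DCK (ENSG00000156136, chromosome 4, 70992538 to 71030914), whose kinase takes the first step of cytarabine activation, was the steadiest member. It stood at 1478, 1446 and 1472 in control and 1535, 1436 and 1402 with IL-10. The control values lie inside the range of the IL-10 values. The control libraries varied by 1.15% of their mean (coefficient of variation) and the IL-10 libraries by 4.73%, where counting error alone gives about 2.61%. The log2 fold change was -0.01 (SE 0.14, 95% interval -0.34 to 0.32, adjusted p = 0.996 in limma). As a ratio of IL-10 to control that interval runs from 0.793 to 1.25, the narrowest of the 9 members.

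DCTD, SAMHD1 and NT5C2 encode enzymes that act against phosphorylated forms of the drug. DCTD (ENSG00000129187, chromosome 4, 182890060 to 182917936), the deoxycytidylate deaminase gene, shared its 2 highest libraries with SLC29A1. It stood at 1795, 2331 and 1773 in control and 1985, 2878 and 1795 with IL-10. Both replicate 2 libraries were the highest of their groups. Its log2 fold change was 0.16 (SE 0.22, 95% interval -0.33 to 0.64, adjusted p = 0.982 in limma) and was -0.05 without IL-10 replicate 2. SAMHD1 (ENSG00000101347, chromosome 20, 36889773 to 36951901), the triphosphate hydrolase, stood at 555, 568 and 432 in control and 602, 531 and 484 with IL-10. The groups overlapped, and both replicate 3 libraries were the lowest of their groups. Its log2 fold change was 0.06 (95% interval -0.36 to 0.48, adjusted p = 0.985 in limma), and turned to -0.04 with libraries scaled to equal totals, -0.06 on leaving out control replicate 3 and -0.02 on leaving out IL-10 replicate 1. NT5C2 (ENSG00000076685, chromosome 10, 103088017 to 103193306), a cytosolic nucleotidase, stood at 666, 737 and 620 in control and 665, 651 and 594 with IL-10. Again the groups overlapped, with a log2 fold change of -0.08 (95% interval -0.44 to 0.28, adjusted p = 0.982 in limma).

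Of the efflux pumps, ABCB1 (ENSG00000085563, chromosome 7, 87503633 to 87713323), the P-glycoprotein gene, was the single member whose groups did not overlap. It stood at 147, 165 and 116 in control and 108, 95.2 and 115 with IL-10. Groups that did not overlap, with IL-10 lower, were found in 3.02% of all genes tested, and in 5.87% with either direction, so 1 of 9 members is not a result about the set. The means were 143 ± 25 and 106 ± 10.0 (SD, n = 3), a log2 fold change of -0.41 (SE 0.22, 95% interval -0.91 to 0.08, adjusted p = 0.982 in limma). ABCB1 was counted in 81 to 166 reads per library, where counting error alone gives a coefficient of variation of about 8.9%.

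Within replicate pairs the ABCB1 difference was uneven. Relative to its control, the IL-10 library of pair 1 had 0.733 of the value (95% counting interval 0.566 to 0.947) and that of pair 2 had 0.577 (0.437 to 0.757). That of pair 3 had 0.994 (0.769 to 1.28), so the replicate 3 libraries did not differ beyond counting error. These exact intervals compare single libraries, not the treatments, and cover counting error only. With pairs 1 and 3 only the log2 fold change was -0.23, and without control replicate 3 it was -0.56.

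The ABCB1 promoter is shown because this gene was the member with separate groups. The RefSeq table (GRCh38.p14) gives 2 start windows for ABCB1, each with 250 bases before the start and 50 from it on. The downstream window lies at chr7:87600835-87601134 on the minus strand and is printed with its matches to CCAAT, on either strand, in capitals.
ABCB1: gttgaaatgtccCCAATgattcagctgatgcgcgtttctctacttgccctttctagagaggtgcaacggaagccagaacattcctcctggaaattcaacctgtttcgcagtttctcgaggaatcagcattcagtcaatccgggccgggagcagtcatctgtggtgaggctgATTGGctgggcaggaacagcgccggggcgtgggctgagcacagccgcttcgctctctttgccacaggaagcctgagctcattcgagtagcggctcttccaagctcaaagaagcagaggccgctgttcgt
The matches begin 238 and 79 bases before the start. CCAAT is the letter core of the CCAAT box, a common promoter element, and 34.6% of all 35116 promoter windows of 300 bases hold it on either strand. GC content was 55.3% in this window and 37.7% in the upstream ABCB1 window, which held no match to any of the 4 motifs searched.

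The search took both strands and covered CCAAT, the TATA box (TATAAA, in 11.5% of all windows), the GC box (GGGCGG, in 45% of all windows) and a STAT motif. The last, TTCNNNGAA, is the letter pattern that STAT proteins, the transcription factors downstream of the IL-10 receptor, are known to bind, and it reads the same on either strand. It was found in 2 of the 17 windows of the 8 members in the table, 1 of NT5C2 and 1 of ABCG2, and in 7.66% of all windows. The NT5C2 window (chr10:103193223-103193522, minus strand, GC content 73%) is shown with that match, which begins 132 bases before the start, and 4 matches to the GC box in capitals.
NT5C2: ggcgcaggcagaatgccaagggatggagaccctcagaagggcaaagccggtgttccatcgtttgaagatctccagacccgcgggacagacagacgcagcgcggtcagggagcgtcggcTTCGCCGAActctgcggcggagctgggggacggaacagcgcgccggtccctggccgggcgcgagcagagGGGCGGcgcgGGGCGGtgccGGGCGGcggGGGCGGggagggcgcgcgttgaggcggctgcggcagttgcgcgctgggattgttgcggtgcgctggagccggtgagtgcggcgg
The matches do not overlap each other in this window, and a match is a description of letters, not of binding.

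ABCC1 (ENSG00000103222, chromosome 16, 15949577 to 16143074), the multidrug resistance protein 1 gene, was the most abundant pump. It stood at 3459, 3335 and 3224 in control and 3204, 4803 and 3342 with IL-10. As with SLC29A1, IL-10 replicate 2 alone stood above the other 5 libraries. The log2 fold change was 0.16 (SE 0.19, 95% interval -0.27 to 0.58, adjusted p = 0.982 in limma) and was -0.03 without that library. ABCC4 (ENSG00000125257, chromosome 13, 95019829 to 95301475), a pump of nucleotide analogues, stood at 1183, 1135 and 934 in control and 1091, 1003 and 968 with IL-10. All 3 IL-10 values lay within the control range, with a log2 fold change of -0.08 (95% interval -0.45 to 0.29, adjusted p = 0.982 in limma).

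ABCG2 (ENSG00000118777, chromosome 4, 88090264 to 88231322), the breast cancer resistance protein gene, was at the edge of detection. It had 1, 0 and 3 reads in control and 2, 3 and 5 reads with IL-10, and the groups overlapped. The exact two-sided 95% interval of the count of 0 reaches 3.69 reads. The sum was 4 reads against 10, a ratio of 2.82 with an exact 95% counting interval of 0.813 to 12.3. The fitted log2 fold change of 1.18 (95% interval -0.24 to 2.59, adjusted p = 0.982 in limma) depends on the pseudocount, from 0.27 with 10 to 2.37 with 0.1. A difference was not detectable at this depth.

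**Figure D1:**
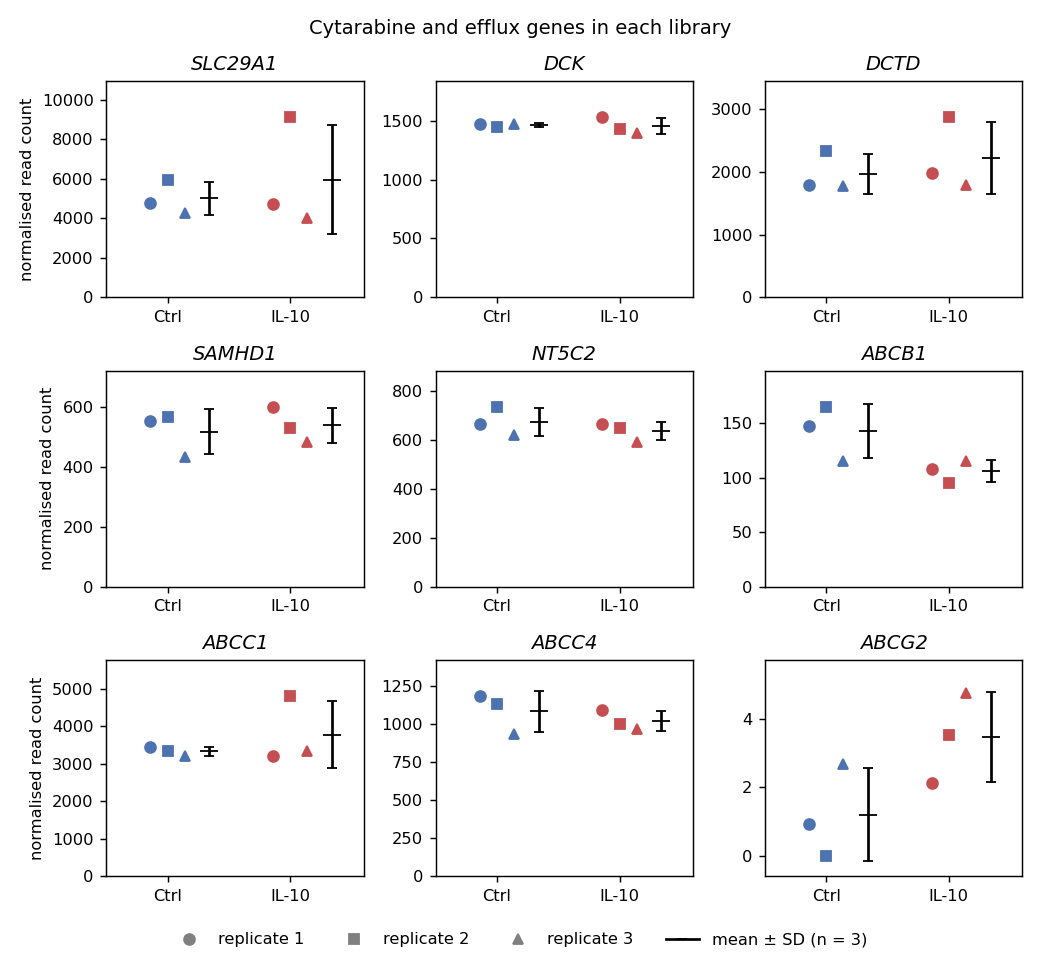
Normalised read counts of the 9 genes in each library (vertical axes, each with its own scale; the ABCG2 axis begins below 0 to show its error bar), with replicates 1 to 3 as circles, squares and triangles, controls in blue, IL-10 in red, and the mean ± SD of 3 libraries in black. IL-10 replicate 2 stands apart for SLC29A1, DCTD and ABCC1, while DCK lies between 1402 and 1535 in all libraries.

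**Figure D2:**
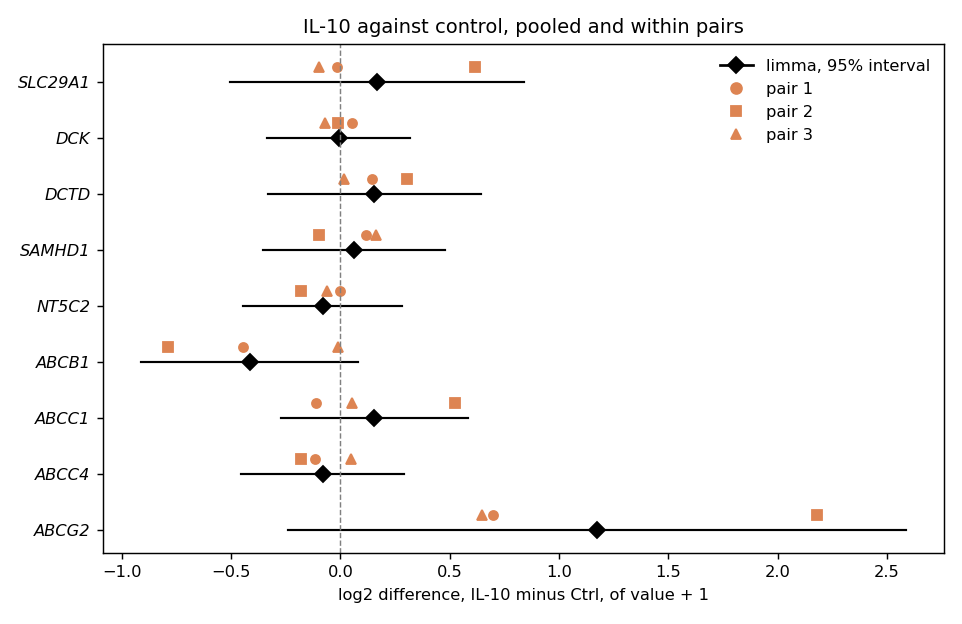
Log2 difference between IL-10 and control of value + 1 (horizontal axis) for each gene, with the limma estimate and its 95% interval in black and the differences within replicate pairs 1 to 3 in orange. Every interval holds 0, and ABCB1 has pair values of -0.44, -0.79 and -0.01.

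Members differed least between control and IL-10 in pair 3 and most in pair 2. Among the 8 members with a mean of at least 50, log2 ratios of IL-10 to control spanned -0.44 to 0.14 in pair 1, -0.79 to 0.62 in pair 2 and -0.10 to 0.16 in pair 3. Their median size, regardless of sign, was 0.11, 0.24 and 0.06. The 95% counting interval of the ratio excluded 1 for 3 members in pair 1 (DCTD, ABCB1 and ABCC1), 6 in pair 2 and 1 in pair 3 (SLC29A1, with a ratio of 0.936). These intervals cover counting error only. The same share over all genes was not computed, so the counts are not a result about the members. Pair 2, with the largest median size, holds IL-10 replicate 2.

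In IL-10 replicate 2 the members split by the GC content of their transcripts. The deviation of that library from the mean of the other 5, on the log2(value + 1) scale, was 0.96 for SLC29A1, 0.58 for DCTD and 0.54 for ABCC1, the 3 members with over 52% GC. It was 0.02 for SAMHD1, -0.01 for NT5C2, -0.03 for DCK, -0.08 for ABCC4 and -0.43 for ABCB1, the members of mean at least 50 with under 45% GC. Both GC limits were chosen after these values were seen. All genes tested of mean at least 50 went the same way, with a median deviation of 0.65 in the 4405 over 52% GC and -0.43 in the 4430 under 45%. DCK, SAMHD1, NT5C2 and ABCC4 lay above the latter median and ABCB1 was at it. In narrower bins, the median was -0.25 at 42 to 44% GC, with NT5C2 and ABCC4 above it and ABCB1 below it. The 5th to 95th percentile of that bin, -0.95 to 0.35, held all of these. At 44 to 46% the median was -0.08, below SAMHD1, and at 38 to 40% it was -0.56, below DCK. After correcting each library for GC content the log2 fold change of SLC29A1 was -0.005, that of ABCC1 0.002 and that of DCTD 0.03, while DCK had 0.16 and ABCB1 -0.35. All of these had an adjusted p of 1.00 in limma. Whether the GC content of the transcripts sets these differences was not tested beyond that correction.

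**Figure D3:**
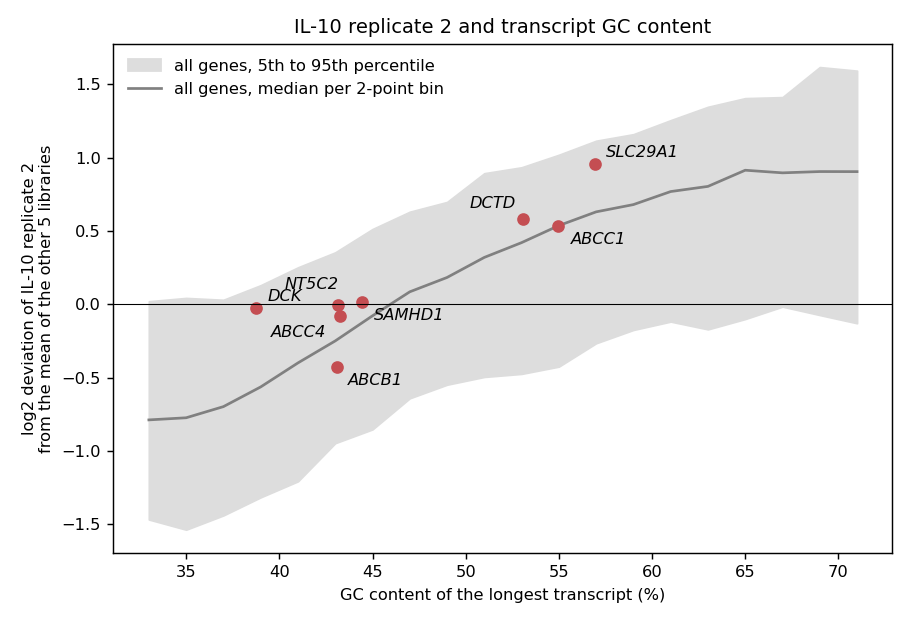
Deviation of IL-10 replicate 2 from the mean of the other 5 libraries (vertical axis, log2) against the GC content of the longest transcript (horizontal axis, %) for the 8 genes with a mean of at least 50, as red points. The grey line and band are the median and the 5th to 95th percentile of all genes per bin of GC content, and the 3 genes above 52% GC lie at 0.54 to 0.96.

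The replicate 2 libraries also held transcripts of liver genes. SLC29A1, DCTD, SAMHD1, NT5C2 and ABCB1 had their highest control value in control replicate 2. The same share over all genes was not computed, so this is not a result about the members. In IL-10 replicate 2, SLC29A1 and DCTD were again the highest of their group, SAMHD1 and NT5C2 were not, and ABCB1 was the lowest. The summed value of all 12 liver markers was 1323 to 1985 in control and 1330 to 1685 with IL-10. SERPINA1 was present in every library at 879 or more and made up most of the sum in the libraries other than control replicate 2. The other 11 summed to 1106 and 525 in the replicate 2 libraries of control and IL-10, against 14.96 to 28.5 elsewhere, where APOB, TTR, FGA, FGB, FGG and AFP were at 0 reads. Their part in the members' values was not tested. Summed airway secretory markers (4 of 4 with reads) were lower with IL-10, at 77.0 to 84.5 against 163 to 199, and their part was not tested either. The summed haemoglobin genes HBA1 and HBB were at 10.7 to 18.8 with IL-10 against 3.98 to 7.12. HBB was the one that was higher, at 9.62 to 18.8 against 1.99 to 7.12, while HBA1 had at most 2 reads in any library, and their part was not tested. Summed neutrophil, monocyte, T and NK cell, B cell, epithelial, and fibroblast and endothelial markers had ranges that overlapped between the groups. EPCAM, at 1487 to 1942 and lowest in the replicate 2 libraries, made up most of the epithelial sum. KRT8 reached 156 and 87.0 in those libraries (control, then IL-10), against 4.28 to 11.2 elsewhere. For KRT18 the values were 19.9 and 11.8 against 0 to 1.07, and for KRT19 52.7 and 42.3 against 16.8 to 32.3. CDH1 did not separate them. The part of these genes was not tested. Fewer cells of a type and less RNA per cell cannot be told apart in bulk RNA.

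Levels of different genes were compared per length, as normalised reads per kb of annotated exons. In control the order was SLC29A1 (1136 ± 195 reads per kb, SD, n = 3), DCTD (567 ± 91.1), DCK (454 ± 5.21), ABCC1 (441 ± 15.5), NT5C2 (131 ± 11.4), ABCC4 (126 ± 15.3), SAMHD1 (46 ± 6.64), ABCB1 (24.6 ± 4.31) and ABCG2 (0.238 ± 0.269). DCK and ABCC1 overlapped in their control libraries, as did NT5C2 and ABCC4, and no other neighbours did. SLC29A1 stood above 96.4% of the 21663 tested genes with a known length, DCK above 89.5%, SAMHD1 above 55% and ABCB1 above 46.7%, where the median gene had 31.5 reads per kb. The order was the same with the length of the longest transcript.

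**Figure D4:**
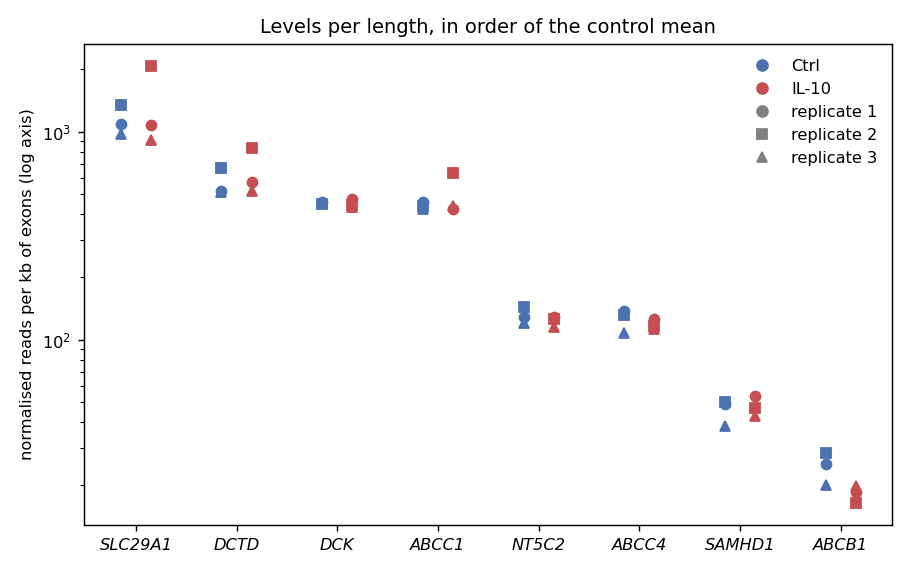
Normalised reads per kb of exons (vertical axis, log scale) for the 8 genes other than ABCG2, in the order of the control mean, with controls in blue, IL-10 in red and replicates 1 to 3 as circles, squares and triangles. The values fall from 1136 for SLC29A1 to 24.6 for ABCB1 in the control mean, and DCK and ABCC1 overlap.

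Ratios within a library do not depend on its scaling, and 4 such ratios were chosen after the values were seen. Activation against loss, as DCK to SAMHD1 per length, was 9.29, 8.89 and 11.9 in control and 8.9, 9.43 and 10.1 with IL-10. DCK to NT5C2 was 3.54, 3.14 and 3.79 in control and 3.69, 3.52 and 3.77 with IL-10. In both ratios the IL-10 libraries lay within the control range. SLC29A1 to DCK was 2.37, 3.01 and 2.13 in control and 2.26, 4.66 and 2.09 with IL-10, again with replicate 2 the highest in each group. ABCC1 to ABCB1 was 18, 15.5 and 21.4 in control and 22.8, 38.7 and 22.3 with IL-10, so the groups did not overlap. In the two-sided exact permutation test of the log ratio the p was 0.1 for ABCC1 to ABCB1 and 0.7 to 0.9 for the others, or 0.4 and 0.9 adjusted over the 4 ratios, and 0.1 is the smallest p that 3 against 3 libraries allow. Because the choice of ratios followed the values, neither this p nor the separate groups of ABCC1 to ABCB1 are support for a difference.

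Some members could share reads with a neighbour, since use of strand in counting is not given in the sources used here. Of the exonic bases of NT5C2, 36.7% overlap exons of CNNM2 on the other strand, which stood at 178 to 287. Of those of SAMHD1, 10.3% overlap TLDC2 on the other strand, which stood at 2.35 to 12.3. DCK shares 199 exonic bases (6.17%) with MOB1B on its own strand, which stood at 598 in IL-10 replicate 2 and at 971 to 1025 in the other libraries.

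The library pattern of each member was compared with those of 11597 other genes of mean at least 50, by the Pearson correlation of log2(value + 1) over the 6 libraries, which share the replicate 2 libraries and the GC trend. The closest gene was NR2C2AP for SLC29A1 (r = 0.9998), RAB7A for DCTD (r = 0.999) and ITPRIP for ABCC1 (r = 0.999). These patterns were common: 2072 genes for SLC29A1, 1348 for DCTD and 1102 for ABCC1 had r over 0.95. The closest were MRS2 for ABCB1 (r = 0.992), TCAM1P for DCK (r = 0.975), XPO7 for SAMHD1 (r = 0.973), GFM1 for NT5C2 (r = 0.995) and PRORP for ABCC4 (r = 0.996), with 5 to 49 genes over 0.95. Between members, SLC29A1 correlated with DCTD at r = 0.97 and with ABCC1 at r = 0.89, and DCK with these 3 at r = -0.34 to -0.16.

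The rest of the pathway was described through 82 other genes in 8 lists, of which 79 had a row and 77 were tested. All had an adjusted p of 0.982 or higher in limma, and the smallest unadjusted p was 0.0752. Of the 77, 55 had a positive and 22 a negative log2 fold change, with a median of 0.08 against 0.02 over all genes tested. Over all 21946 genes tested, 11407 were positive and 10539 negative. By replicate pair, the median of the log2 ratios of the 77 was -0.02, 0.24 and 0.01, against 0.0009, 0.03 and 0.001 over all genes tested. Groups did not overlap in 2 of the 77, 2.6% against 5.87% of all genes: TYMS, the thymidylate synthase gene, and CBR3, a carbonyl reductase gene, both higher with IL-10, as were 2.85% of all genes. TYMS averaged 1400 in control against 1650 with IL-10, and CBR3, near the detection limit, 1.24 against 3.63.

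Nucleoside transporters other than SLC29A1 had a median log2 fold change of 0.26 over 6 genes, with 5 positive. Their medians were -0.11, 0.94 and -0.05 in pairs 1, 2 and 3. These medians rest in part on SLC28A1 (values of 0 to 2.14) and SLC28A2 (0 to 5.34), both near the detection limit. Their log2 fold changes were 0.75 and 0.83, against -0.04 to 0.38 for the rest of the list. In pair 2 both were at 0 in control, with log2 ratios of 1.12. SLC29A2, another equilibrative transporter, had 1403 ± 214 in control and 1517 ± 361 with IL-10 (SD, n = 3, as for the genes that follow, control first). SLC28A3, a concentrative transporter, stood at 463 ± 168 and 453 ± 170. Nucleoside and nucleotide kinases had a median of 0.14 over 12 genes, 10 positive. TK1, thymidine kinase, stood at 6130 ± 249 and 7948 ± 2889, and CMPK1, which phosphorylates cytarabine monophosphate, at 3112 ± 114 and 2982 ± 389. Nucleotidases and other breakdown enzymes had a median of 0.13 over 12 genes, 10 positive, with DUT, the dUTPase gene, at 4823 ± 83.8 and 5276 ± 440 and PNP, a nucleoside phosphorylase, at 1853 ± 223 and 2068 ± 513.

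Genes of deoxynucleotide supply, whose products compete with the drug, had a median of 0.02 over 10 genes, 7 positive. CAD, an enzyme of pyrimidine synthesis, stood at 6934 ± 1859 and 8562 ± 4659, and RRM2, the small subunit of ribonucleotide reductase, at 5033 ± 213 and 5168 ± 330. DNA polymerase and primase genes had a median of -0.02 over 10 genes, 5 positive, with POLE at 7357 ± 1069 and 8190 ± 1954 and POLD2 at 5467 ± 790 and 7428 ± 4316. Other ABC transporters and MVP had a median of 0.04 over 10 genes, 7 positive. ABCC5, a pump of nucleotide analogues, stood at 1304 ± 156 and 1279 ± 159, and ABCA2, an intracellular lipid transporter, at 449 ± 154 and 472 ± 96.8.

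Anthracycline targets and reductases had a median of 0.20 over 8 genes, 5 positive. Of these 5, CBR1 and CBR3 were near the detection limit. TOP2A, the topoisomerase that anthracyclines poison, stood at 19329 ± 382 and 16489 ± 5720, and TOP2B, its paralogue, at 10686 ± 506 and 9365 ± 3117, both lowest in IL-10 replicate 2. Factors known to act on ABCB1, ABCG2 or SAMHD1 transcription had a median of 0.04 over 9 genes, 6 positive, with YBX1 at 45062 ± 4072 and 51788 ± 15026 and AHR, the aryl hydrocarbon receptor, at 2307 ± 563 and 2114 ± 1038. The GC pattern of IL-10 replicate 2 held in these lists too. On the log2 scale that library exceeded the average of the rest in 27 of 28 genes of mean at least 50 over 52% GC. It did so in 4 of 23 under 45% GC, where the shares over all genes of such a mean were 89.4% and 16.1%. IL10RA, the ligand-binding chain of the IL-10 receptor, was low, at 11.1 ± 5.34 and 16.3 ± 4.14. Neither it nor IL10RB, STAT3 or SOCS3 reached the threshold, each with an adjusted p of 0.982 or higher in limma.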

How the data were processed

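RNA of 6 Kasumi-1 libraries, 3 per group, was extracted with Trizol and prepared with TruSeq RNA reagents, per the labels' protocols. The values are a signal: read counts that the authors divided by 1 size factor per library before they were deposited. This was read from the values, which in each library were 100% whole multiples of 1 step within 0.01 read and whose steps match size factors by the median of ratios (0.851 to 1.12). The submitters' processing notes name edgeR 3.18.1, GRCh38 and hg38, with no role. For the aligner, counter, annotation and strand, the sources used here give nothing. In control replicate 2 the step is 0.994, so close to 1 that edgeR was also run without it.

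Groups and replicate numbers come from the sample titles. Separate cultures are not stated, so the p-values reflect spread among these libraries alone, and that spread may be technical. On log2(value + 1), limma 3.58.1 with a trend on intensity, run in R 4.3.3, was fitted to 21946 genes (3 or more libraries with a value of 1 or higher), two-sided, with Benjamini-Hochberg adjustment over all of them and a threshold of 0.05. Fold changes on this scale understate those of low genes. edgeR 4.0.16 and DESeq2 1.42.0 on the recovered reads, other pseudocounts, filters and scalings, sample weights, a GC correction by lowess, a replicate block and leaving out libraries were alternatives. The fit was tested on simulated data that held no GC trend and no shared replicate effect, so that test does not cover these features of the libraries. Of the identifiers, 26883 matched a table of gene names and 27052 matched GENCODE 29, which gave coordinates, lengths and GC content. Promoter sequences are RefSeq's.

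The members and lists were chosen with earlier results of these data known. Named are all members and, per pathway list, the 2 tested genes of highest mean, with IL10RA, IL10RB, STAT3 and SOCS3, and the gene most like each member of mean at least 50. TYMS and CBR3 were chosen after their values were seen. Libraries of the same number deviated together from their group means (correlations of 0.367, 0.605 and 0.726 over 11605 genes of mean at least 50), so the numbers were taken as pairs. Between unlike numbers the correlations ran from -0.692 to 0.208. The highest of these were 0.208 for control 1 with IL-10 3 and 0.176 for control 3 with IL-10 1, so pair 1 stood out least. The labels give only the shared number. Intervals at 95% cover counting error only where so named.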

Additional observations from a re-analysis of the deposited data

How the results depend on the processing

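No member passed the threshold under any of the alternatives run, 206 comparisons for 9 members, with adjusted p from 0.272 (ABCB1 with sample weights) upward. The sign of the log2 fold change differed from that reported in 19 of the 206. NT5C2 (-0.18 to -0.02), ABCB1 (-0.56 to -0.23), ABCC4 (-0.18 to -0.01) and ABCG2 (0.27 to 2.37) kept theirs in all. The ranges were -0.19 to 0.41 for SLC29A1, -0.05 to 0.30 for DCTD, -0.06 to 0.26 for ABCC1, -0.11 to 0.16 for DCK and -0.06 to 0.14 for SAMHD1. ABCG2 had no value with the filter of at least 10. The count of genes past the threshold was 0 in each alternative except pairs 1 and 3 only with the replicate block, where it was 11, none of them a member. The cause was not tested, beyond that this fit holds 4 libraries. With the replicate block and all 6 libraries, 0 genes passed, 512 had an unadjusted p under 0.05, and no call changed. Leaving out a library leaves its partner unpaired. With equal totals, the median over all genes was -0.08 in place of 0.02. ABCG2 had 0 to 5 reads per library. For ABCB1 the controls varied by 17.5% (coefficient of variation), against 8.9% from counting alone.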
